A study of Mus musculus with 98 samples.

Results

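The response of the mouse spleen to trauma-hemorrhage was set against its response to an infusion of lipopolysaccharide (LPS), the glycolipid of the outer membrane of gram-negative bacteria. The spleen arrays of both models whose titles carry the codes c or x were used, which gave 23 of the 98 arrays of the series and 23 of its 34 spleen arrays. There were 6 c arrays and 5 x arrays for trauma-hemorrhage (TH), and 6 c arrays and 6 x arrays for LPS. Total RNA of the spleen was hybridised to a 1-colour oligonucleotide array, which reads each gene by one or more probe sets as a fluorescence intensity.

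The labels describe the spleens of both codes as coming from mice that had the injury or the infusion, and every title carries the letter E, which the labels of the blood arrays of the series use for injured or infused animals. The sources used here do not explain c and x and do not state the strain, sex, age, dose or time, so each response is reported as coded, x minus c, and a gene is called higher or lower in x. Nothing in the labels says that arrays came from separate animals, so the p-values rest on the spread among these samples alone, and that spread may be a technical one. The TH titles number all c arrays before all x arrays, so the code and that order cannot be told apart. The LPS titles, which also carry the version mark v2, number 2 rounds of 3 x and 3 c arrays.

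LPS is sensed by Toll-like receptor 4, which activates the transcription factor NF-kB and, through a separate adaptor, induces type I interferon. Interferon in turn drives a large set of antiviral genes whose promoters carry the interferon-stimulated response element (ISRE). Trauma-hemorrhage combines tissue injury with blood loss, and the same receptors can respond to molecules released from damaged tissue. The spleen holds B cell follicles, T cell zones and a red pulp whose macrophages clear old red cells and recycle their iron, and each of these compartments has genes that mark it.

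The lowest deposited value was 11.1 on every TH array and 25.9 on every LPS array, and each array had between 4.36% and 5.72% of its probe sets at that floor. The 2 sets were therefore not compared in level. Each x group was compared with the c group of its own model, and the 2 changes were then compared with each other (TH change minus LPS change, called the difference below). Changes are on the scale log2(intensity + 16) after quantile normalization, with the standard error (SE) of the fit over all 23 arrays. Of the 10247 features tested, called genes here, 8938 carried 1 gene symbol. A gene was called at an adjusted p under 0.05 in limma, with Benjamini-Hochberg adjustment over all 10247.

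Some arrays stood apart. The residual SD of LPS c replicate 6 was 0.284 against 0.131 to 0.166 on the other 5 arrays of its group. On LPS c replicate 2 the mean log2 level of 24 inflammatory genes was 0.55 above its group mean. The other c arrays lay between -0.19 and -0.05 relative to that mean. The summary of that gene list and the differences of Cxcl2, Acod1 and Clec4e are given with and without LPS c replicate 2. Other inflammatory genes are given with it kept, unless said otherwise. On TH x replicate 3 the mean of 28 interferon-response genes rose 1.66 over the c mean against 2.53 to 2.69 on the other 4 x arrays. The log2 ratios of 3′ to 5′ control probe sets for actin and Gapdh, a sign of RNA quality, differed between x and c by 0.14 at most, with an adjusted p of 0.978 in all 4 exact two-sided permutation tests. Summed over the 15 tested B cell markers the intensity lay between 16770 and 34850 on all 23 arrays, and the 9 tested markers of pancreatic acini, a tissue that lies beside the spleen, summed to between 1793 and 2697, with none called in either model or in the difference.

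The TH spleens responded more widely than the LPS spleens, and the genes that the LPS spleens changed were mostly changed in TH too. In TH, 3173 of 10247 genes (31.0%) were called, 1190 higher in x (11.6%) and 1983 lower (19.4%). In LPS, 401 genes (3.91%) were called, 296 higher (2.89%) and 105 lower (1.02%), and the number lower was 161 without LPS c replicate 6. The median change over all genes was -0.01 in TH and -0.02 in LPS. Of the 401 LPS calls, 332 (82.8%) were also called in TH in the same direction, and these made up 10.5% of the TH calls. The same-direction calls held 237 genes higher and 95 lower in x, which is 3.24% of the genes tested.

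The difference between the 2 responses passed the threshold for 1241 genes (12.1%), with a larger TH value for 470 (4.59%) and a smaller one for 771 (7.52%). In 1075 of the 1241, the TH change was called and the LPS change was not, and these divided into 379 genes higher and 696 lower in TH x. In 122 both changes were called in the same direction, in 4 in opposite directions, in 18 only the LPS change was called and in 22 neither. At an estimate of at least 2-fold the balance turned, with 114 positive and 40 negative differences. Leaving out 1 array at a time gave between 1039 and 1421 differing genes.

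**Figure D1:**
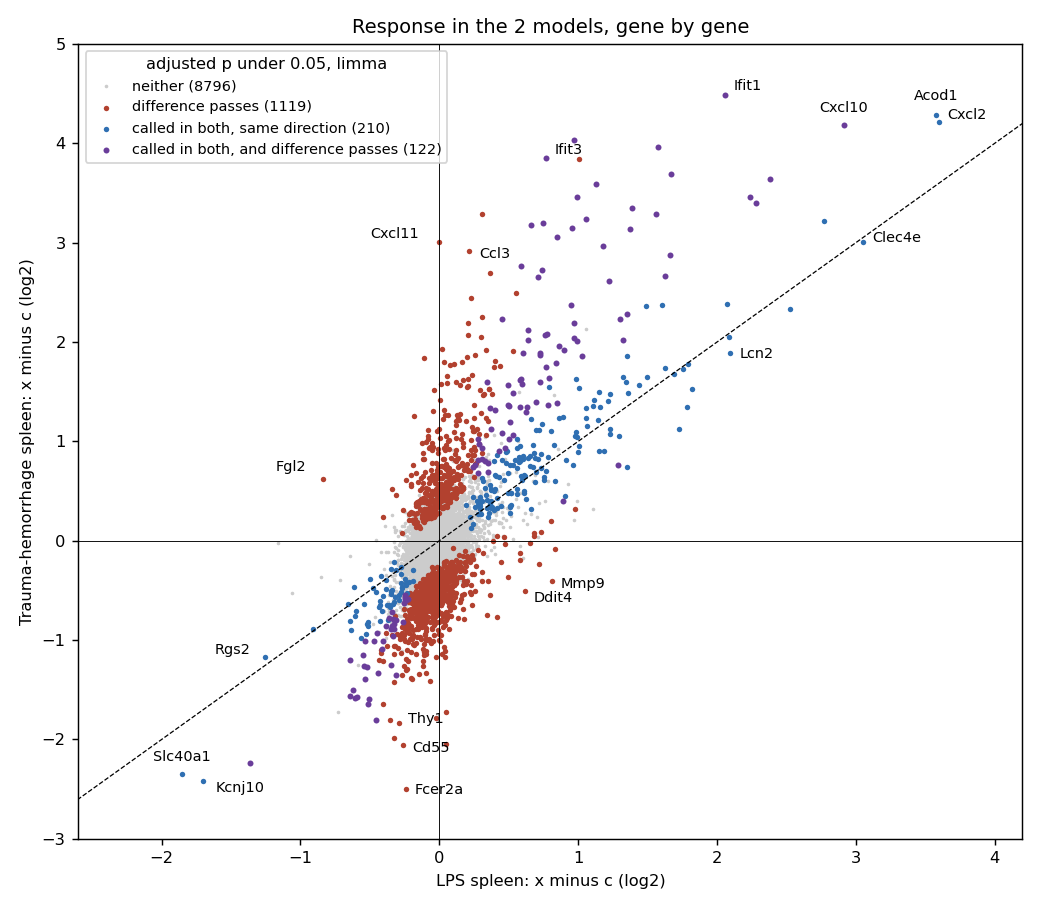
Change in x against c (log2) of each of the 10247 genes in the LPS spleens (horizontal) and the TH spleens (vertical), with the dashed line marking equal change. Red points are genes whose difference passed without a same-direction call in both models, purple points the 122 whose difference passed with one, and blue points the other genes called in both in the same direction. Cxcl2, Acod1 and Clec4e lie near the line, the interferon gene Ifit3 lies far above it, and Fcer2a and Thy1 lie low in TH beside an LPS change near 0.

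Genes induced by interferon showed the widest gap between the models. Of 28 tested members of an interferon-response list (33 listed, the other 5 without a probe set of their own), 27 rose in TH x and 16 rose in LPS x. The estimate was positive for 28 members in TH and 26 in LPS. Calls in either model rest on a spread pooled over the arrays of both, so the call counts alone do not measure the gap. The median change was 2.71 in TH and 0.55 in LPS, and the difference passed for 26 members, all with the larger change in TH. The median of the members' differences was 1.99, against -0.00 over all genes tested. Without TH x replicate 3, which had the weakest rise, the median difference was 2.28.

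Ifit3, an antiviral protein of the IFIT family, had the largest positive difference. Its intensities on the TH x arrays were 1390, 2850, 3110, 3320 and 3660, against a lowest, median and highest TH c value of 140, 154 and 215. On the LPS arrays it ran from 107 to 235 (median 155) in x and from 86 to 103 (median 94.4) in c. No x array overlapped a c array in either model, as held for 18.8% of all genes tested in TH and 3.26% in LPS. The rise was 14.4-fold in TH and 1.70-fold in LPS. The log2 changes were 3.85 (SE 0.19) and 0.77 (SE 0.18), and their difference was 3.09 (SE 0.27, adjusted p = 1.3e-08).

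Mx1, a dynamin-like GTPase that blocks influenza viruses, read 754, 873, 1560, 1680 and 1720 on the TH x arrays against 34.7 to 73.4 in TH c. In LPS its range was 82.8 to 163 in x and 44 to 64.1 in c. Groups were again separate in both models, and the difference was 3.06 (SE 0.28, adjusted p = 4.3e-08). Ifit1, a relative of Ifit3 that binds viral RNA lacking a host cap, had the highest TH fold among the genes named here on the scale of intensity + 16, which understates the change of dim genes such as Acod1. It read 3680, 4790, 5770, 5930 and 6340 in TH x against 140 to 341 in TH c, and 1010 to 2490 against 324 to 455 in LPS. Its rise was 22.4-fold in TH and 4.16-fold in LPS, both called, with a difference of 2.43 (SE 0.28, adjusted p = 8.0e-07).

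The other antiviral genes among the 12 largest positive differences were Oas2 and Oasl1 of the oligoadenylate synthetase family, Usp18, a protease that takes ISG15 off its targets, Rsad2 (viperin) and Zbp1, a sensor of Z-form nucleic acid. Their differences ran from 2.45 for Zbp1 to 2.98 for Oas2 with 16 added. For these 2 genes they were 2.94 and 3.475 with 1 added, and 1.71 and 2.19 with 64 added. In LPS, Usp18, Rsad2, Zbp1 and Oasl1 were called higher in x, with changes of 0.99, 1.13, 0.75 and 0.66, and Oasl1 lost its call in 8 of the 23 fits that leave out 1 array (LPS c replicates 2, 4, 5 or 6 or LPS x replicates 1, 4, 5 or 6, adjusted p up to 0.092). Further probe sets of Rsad2 and Zbp1 read 0.05 and 0.36 in LPS and were not called there. Oas2 changed by 0.31 in LPS (adjusted p = 0.70), and its LPS intensities of 247 to 291 in x and 203 to 241 in c did not overlap. Slfn4, a schlafen gene of myeloid cells, rose by 3.84 (SE 0.32) in TH and read 1.01 (SE 0.30, adjusted p = 0.060) in LPS, a value called without LPS c replicate 2, TH c replicate 5 or TH x replicates 2 or 3. Cxcl11, a ligand of the chemokine receptor CXCR3, read 140, 191, 252, 303 and 387 in TH x, while 2 of the 6 TH c arrays were at the floor and the highest read 15.6. Its LPS arrays read 177 to 227 in x and 162 to 248 in c and overlapped, and the LPS change was -0.00 (SE 0.16). All TH c values lay below the added 16, so the size of the difference followed that setting (3.01 with 16, 3.87 with 1 and 1.95 with 64) and is no exact measure, though it passed in each case.

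The guanylate-binding proteins and immunity-related GTPases, which attack the vacuoles of intracellular microbes and are induced above all by interferon gamma, rose in both models. All 9 tested members (14 listed) rose in TH x and 8 rose in LPS x, with median changes of 2.01 and 0.77. The difference passed for all 9 with the larger change in TH (median difference 1.28). Irgm2 rose by 3.15 in TH and 0.96 in LPS, Igtp by 1.87 and 0.72, and Ifi47 by 1.62 and 0.58.

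Genes that cut and load peptides for MHC class I moved in TH. Of 12 tested members, 8 rose in TH x and none was called in LPS, and the difference passed for 6, all positive. Over all genes tested, 11.6% rose in TH x, 3.91% were called in LPS and 4.59% had a positive difference. Tap1, a peptide transporter of the endoplasmic reticulum, rose by 0.91 in TH against a reading of 0.23 in LPS (adjusted p = 0.19), and the LPS value was called without TH x replicate 3 (adjusted p = 0.040). Tapbp (tapasin) read 0.74 and 0.06, with a further probe set whose difference of 0.33 did not pass, and the immunoproteasome subunit Psmb9 0.56 and 0.02. In MHC class II the regulator Ciita fell by 0.73 in TH and read -0.13 in LPS. It was the only one of 10 tested members whose difference passed, a share near the 12.1% of all genes tested. A further probe set of Ciita had a difference of -0.54 that did not (adjusted p = 0.14).

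**Figure D2:**
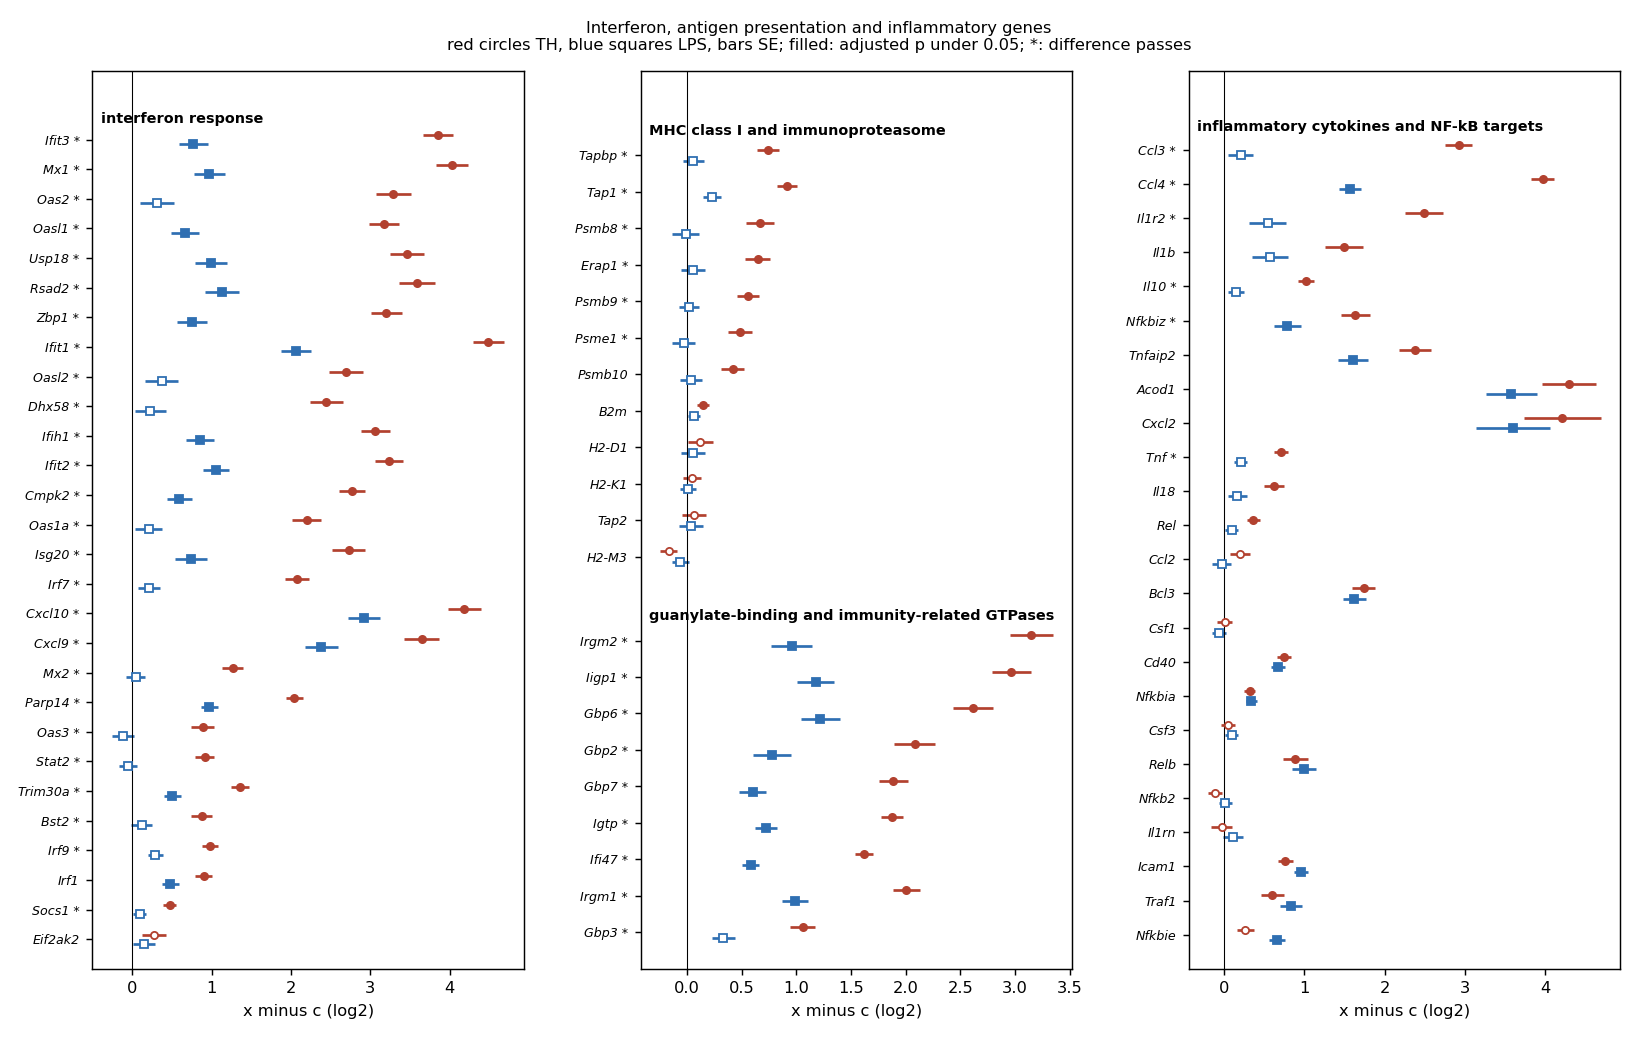
Change in x against c (log2, with SE) of the tested members of 4 lists, in TH (red circles) and LPS (blue squares). Filled symbols passed the test and a star marks a gene whose difference passed. Of 28 interferon-response genes 26 carry a star, as do all 9 GTPases and 6 of 12 MHC class I genes, against 6 of 24 inflammatory genes. The difference passed for 12.1% of all genes tested.

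Inflammatory genes gave a different picture, with a smaller median gap between the 2 models. Of 24 tested cytokines and NF-kB targets (38 listed), 18 rose in TH x and 12 in LPS x, with median changes of 0.76 and 0.56, and 11 rose in both. The difference passed for 6, all with the larger change in TH. Without LPS c replicate 2 the LPS median was 0.70, 13 members were called in LPS, and the difference passed for 6 in favour of TH and 1 in favour of LPS.

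Cxcl2, a chemokine that draws neutrophils, and Acod1 had the largest changes shared by both models, ranked by the smaller of the 2 changes. It read 1530, 1720, 1850, 2370 and 2760 in TH x against 39.8 to 212 in TH c, and 993 to 2090 in LPS x. On 5 of the 6 LPS c arrays it read 41.6 to 77.6 and on LPS c replicate 2 it read 878. The changes were 4.21 (SE 0.48) in TH and 3.60 (SE 0.45) in LPS, with a difference of 0.62 and a 95% interval of -0.74 to 1.97, and the difference was -0.02 without LPS c replicate 2. An interval this wide does not show that the 2 responses were equal.

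Acod1, the enzyme that makes itaconate in activated macrophages, read 505, 869, 988, 1060 and 1290 in TH x and 15 to 48.2 in TH c. In LPS it read 1220 to 2280 in x and 70.7 to 111 on 5 c arrays, with 529 on LPS c replicate 2. Its changes of 4.29 and 3.58 differed by 0.71 (SE 0.46, adjusted p = 0.38), and by 0.29 without that c array. Clec4e (Mincle), a receptor for mycobacterial glycolipid and for a protein of dead cells, changed by 3.01 and 3.05, and its difference was -0.04 (95% interval -0.99 to 0.90) and -0.37 without LPS c replicate 2. Ccrl2, Fpr2 and Lcn2, which encode a chemerin-binding receptor, a formyl peptide receptor and an iron-siderophore trap, rose in both models, with differences of 0.45, 0.31 and -0.21 that did not pass.

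Chemokine genes differed in how far the models parted. Ccl3 and Ccl4, which encode macrophage inflammatory proteins, were among the 12 largest positive differences. Ccl4 read 1810, 2140, 2710, 2720 and 2860 in TH x against 97.7 to 176 in TH c, and 483 to 700 against 160 to 265 in LPS. It rose 15.6-fold and 2.97-fold, with a difference of 2.39 (SE 0.20, adjusted p = 1.2e-08). Ccl3 rose by 2.92 in TH and read 0.21 (adjusted p = 0.75) in LPS, where x ran from 137 to 158 and c from 107 to 140. Cxcl9 and Cxcl10, which like Cxcl11 bind CXCR3, rose in both models, by 3.64 and 4.18 in TH and by 2.38 and 2.92 in LPS. Their differences of 1.26 (adjusted p = 0.0054) and 1.27 (adjusted p = 0.0037) passed. Cd14, which hands LPS to Toll-like receptor 4, rose by 3.40 and 2.28 with a difference of 1.12 (adjusted p = 0.0084). After Ccl3 and Ccl4, the inflammatory gene with the smallest p for the difference was Il10, an anti-inflammatory cytokine, which rose by 1.03 in TH and read 0.15 in LPS.

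Promoter stretches of genes of the interferon-response and the inflammatory lists are printed to show the sequences behind the list names. They come from the RefSeq promoter table (GRCm38.p6), which holds 250 bases before to 50 bases after each gene start. The stretches were chosen after the values and matches were seen. Capitals mark the searched letters, which were GAAA and GAAA parted by any 2 bases for the ISRE (Ifit1, Ifit3, Rsad2 and Cxcl10) and GGG and TTCC parted by any 3 bases for an NF-kB site (Cxcl2 and Nfkbia), on either strand and with overlaps allowed.
Ifit1, chr19:34640759-34640858, plus strand: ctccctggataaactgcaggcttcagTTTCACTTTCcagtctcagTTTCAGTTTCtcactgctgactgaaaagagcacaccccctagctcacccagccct
Ifit3, chr19:34583362-34583461, plus strand: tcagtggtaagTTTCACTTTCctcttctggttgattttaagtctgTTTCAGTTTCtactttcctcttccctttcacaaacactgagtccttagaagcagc
Rsad2, chr12:26456518-26456617, minus strand: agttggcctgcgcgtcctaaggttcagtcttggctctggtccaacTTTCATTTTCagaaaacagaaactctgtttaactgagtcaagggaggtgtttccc
Cxcl10, chr5:92349040-92349139, minus strand: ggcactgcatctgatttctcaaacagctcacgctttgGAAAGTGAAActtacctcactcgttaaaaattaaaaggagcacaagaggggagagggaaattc
Cxcl2, chr5:90903776-90903875, plus strand: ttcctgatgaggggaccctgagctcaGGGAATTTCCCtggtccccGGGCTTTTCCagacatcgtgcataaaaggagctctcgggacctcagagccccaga
Nfkbia, chr12:55492622-55492721, minus strand: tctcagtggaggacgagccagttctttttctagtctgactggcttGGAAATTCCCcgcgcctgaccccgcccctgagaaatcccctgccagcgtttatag

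The stretches of Ifit1 and Ifit3 each held 2 ISRE matches, and that of Cxcl2 held 3 overlapping or neighbouring NF-kB matches. Nfkbia encodes the inhibitor IkB alpha, itself an NF-kB target. Of the interferon-response genes with a promoter in the table, 12 of 21 held an ISRE match, as did 6 of 7 of the GTPases and none of 17 of the inflammatory genes. The NF-kB letters were found for 5 of 21, 1 of 7 and 7 of 17. Cxcl10, printed for its ISRE match, was among these 5, so its promoter held both. Over the promoters of genes that were higher in TH x with a differing response, 12.4% of 402 windows held the ISRE letters. The share was 8.24% of 85 windows for genes higher and alike in both models, 1.06% of 758 for genes lower in TH x with a differing response, 3.19% of 9276 for all genes tested and 3.44% of all 32851 windows in the table. For the NF-kB letters the same shares were 7.21%, 5.88%, 5.54%, 6.05% and 5.56%. The expression values chose these gene groups, so the shares are a description, and a match is not a shown binding site.

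A gene called in both models in the same direction was counted as alike where the 95% interval of its difference lay within 0.5 log2 on either side of 0. This held for 109 of the 332 (1.06% of all genes tested), 73 higher and 36 lower in x. The median change of the 237 genes higher in both was 1.02 in TH and 0.66 in LPS, and of the 95 lower in both it was -0.71 and -0.38. The TH change was the larger in size for 266 of the 332. Alike members of the fixed lists, named after their values were seen, were Sod2, the mitochondrial superoxide dismutase (1.12 in TH and 1.23 in LPS), the adhesion molecule Icam1 (0.77 and 0.96), the costimulatory receptor Cd40 (0.75 and 0.68), Prdm1 (0.87 and 0.74) and Nfkbia (0.33 and 0.34).

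Among the genes lower in both, Slc40a1 stood out. It encodes ferroportin, the iron exporter of red pulp macrophages. It read 160, 186, 218, 339 and 453 in TH x against 1170 to 1680 in TH c, and 414 to 754 in LPS x against 1640 to 2530 in LPS c. No x array overlapped a c array. The fall was 5.08-fold in TH and 3.61-fold in LPS, with a difference of -0.49 (SE 0.25, adjusted p = 0.24) that passed without TH x replicate 3 (-0.68, adjusted p = 0.039). A further probe set of Slc40a1 fell by 1.54 and 0.96, and its difference of -0.59 passed when every probe set was tested (adjusted p = 0.0063).

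Hpgd, which breaks down prostaglandins, fell by 2.24 in TH and 1.36 in LPS, with TH x at 35.4 to 77 against 255 to 438 in TH c and LPS x at 109 to 234 against 324 to 575 in LPS c. Its difference of -0.88 passed (adjusted p = 0.015). Kcnj10, a potassium channel, fell by 2.42 and 1.71, with 1 TH x array at the floor, and its difference of -0.72 (adjusted p = 0.076) passed in 3 of the 23 fits that leave out 1 array (without LPS x replicate 3, TH c replicate 6 or TH x replicate 3, adjusted p of 0.026 to 0.041). Rgs2, a brake on G protein signalling, fell by 1.17 and 1.26, and Clec7a (Dectin-1), a receptor for fungal glucan, by 0.89 and 0.91. Slc12a2, Lpin1, Myadm, Nrp1 and Cyp27a1 also fell in both models, and of these the difference passed for Lpin1 (-0.92), Myadm (-0.56) and Cyp27a1 (-0.88). That of Myadm was lost in 5 of the 23 fits (without LPS x replicate 3, TH c replicate 3 or TH x replicates 1, 4 or 5), and a further Myadm probe set had a difference of -0.17 that did not pass. For Nrp1 the result turned on the probe set. The one used fell by 0.90 and 0.64, while 2 further ones fell by 0.89 and 0.96 in TH, read -0.23 and -0.22 in LPS without a call, and had differences of -0.65 and -0.74 that passed.

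**Figure D3:**
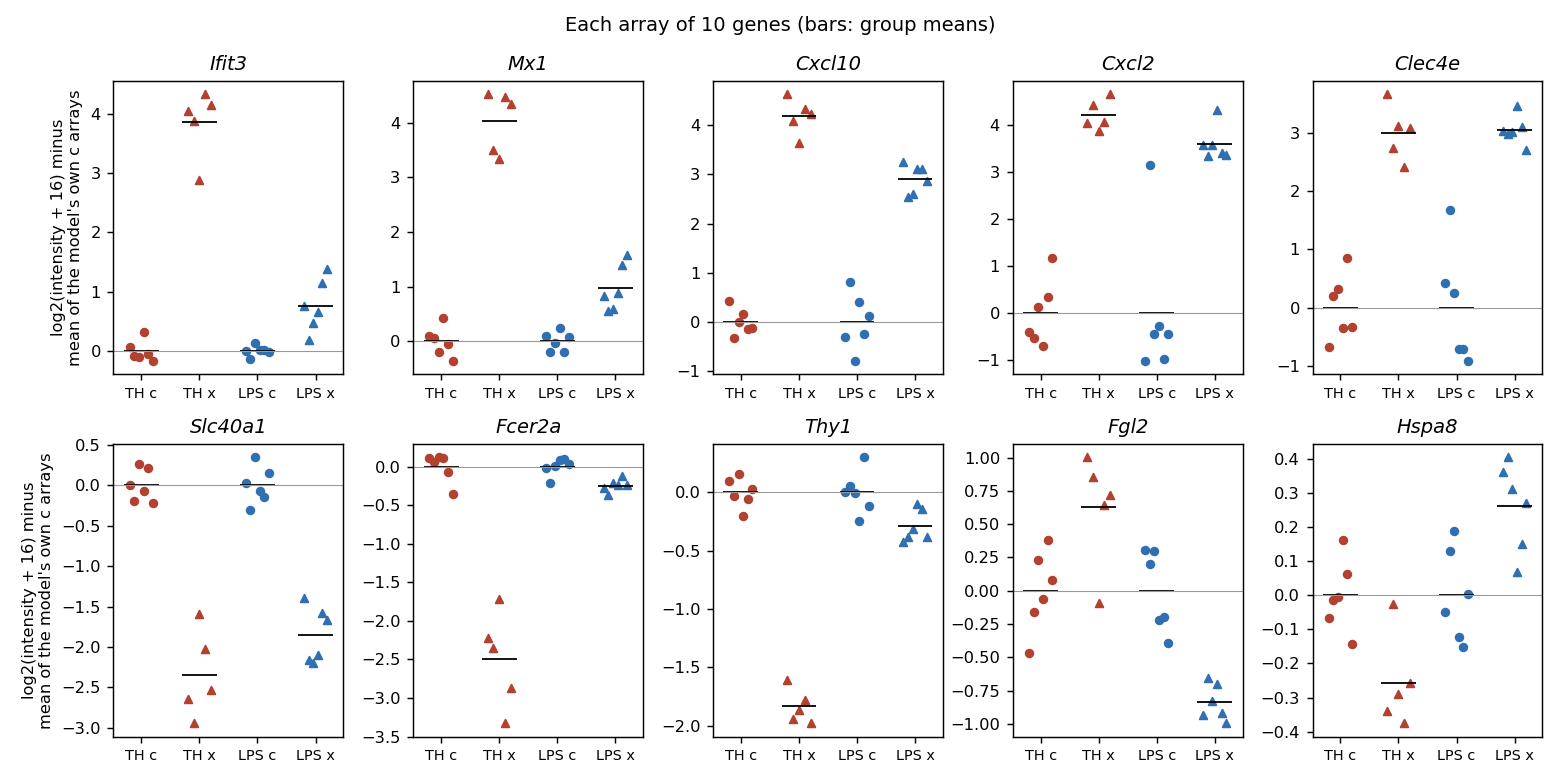
Each array of 10 genes as log2(intensity + 16) minus the mean of the c arrays of its own model, with circles for c, triangles for x and bars for group means. Ifit3 and Mx1 rose far more in TH than in LPS. Cxcl2 and Clec4e rose and Slc40a1 fell in both models, with differences that did not pass at the probe sets shown with all arrays kept. Fcer2a and Thy1 fell in TH x, and Fgl2 and Hspa8 moved in opposite directions. The LPS c array far above its group for Cxcl2 and Clec4e is replicate 2.

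The genes with the largest negative differences fell in TH x with little change in LPS, and they include genes of B and T cells. Fcer2a (CD23), the low-affinity IgE receptor of mature B cells, read 180, 252, 375, 394 and 611 in TH x against 1530 to 2200 in TH c. In LPS it read 2810 to 3290 in x and 3190 to 3740 in c. It fell 5.64-fold in TH, its LPS change was -0.24 (SE 0.16, adjusted p = 0.67), and the difference was -2.25 (SE 0.23, adjusted p = 2.2e-07). A further, dimmer probe set of Fcer2a read -0.09 in TH and -0.02 in LPS. In whole tissue, fewer cells of a type and less RNA per cell cannot be told apart.

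Thy1, a surface protein of T cells, read 249, 267, 279, 303 and 305 in TH x against 949 to 1190 in TH c, and 1010 to 1310 against 1140 to 1630 in LPS. Its fall in TH was 1.84 (SE 0.09) and its LPS change was -0.29 (SE 0.09, adjusted p = 0.054), a value called in 6 of the 23 fits that leave out 1 array (LPS c replicates 4 or 6, LPS x replicates 4 or 5, TH c replicate 4 or TH x replicate 1). The difference of -1.54 had an adjusted p of 9.2e-09. Cd55, which protects cells from complement, read 74.3, 89, 115, 117 and 143 in TH x against 355 to 644 in TH c, and it overlapped between the LPS groups (334 to 469 and 370 to 587). Its difference was -1.80 (SE 0.19, adjusted p = 2.6e-07). The T cell receptor-associated Cd5 fell by 1.64 in TH and read -0.40 in LPS (adjusted p = 0.082, and 0.0084 without LPS c replicate 6).

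Emilin3, Slit1 and Vegfb also had large negative differences (-2.10, -1.77 and -1.76), and 1, 1 and 2 of their 5 TH x arrays were at the floor. These sizes followed the added value and are no exact measure. They were -2.45, -2.26 and -2.25 with 1 added, and -1.55, -1.14 and -1.12 with 64 added, and passed in each case. The TH x arrays of Slit1 read 11.1, 14, 18.2, 147 and 151, so they fell into a low and a higher set, while TH c ran from 189 to 220. The remaining genes of this group were Mxd4, a repressor that opposes Myc, the transcription factor Sox4, Gga2, the cell cycle phosphatase Cdc25b and Rhoq, with differences from -1.21 to -1.45. Of 6 probe sets of Sox4, 2 had positive differences of 0.08 and 0.17 that did not pass, and a further probe set of Mxd4 had a difference of -0.10 that did not pass either.

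Over the B cell list, 11 of 15 tested members fell in TH x and none was called in LPS, with medians of -0.33 and -0.08. Over all genes tested, 19.4% fell in TH x and 3.91% were called in LPS. The difference passed for 7 members of the list, all negative, and for 4 without TH x replicate 4. Cr2 (CD21), the complement receptor of follicular and marginal zone B cells, fell by 1.38 in TH and read -0.20 in LPS, with TH x at 387 to 689 and TH c at 1030 to 1480. Cd79b, part of the B cell receptor, fell by 1.13 and read -0.28 in LPS (adjusted p = 0.17, and 0.015 without TH x replicate 4). The mean B cell score, the average log2 level of the list relative to the c mean, was between -0.77 and -0.36 on the TH x arrays and between -0.16 and -0.01 on the LPS x arrays. The summed B cell intensity was 16770 to 21310 in TH x against 23960 to 28230 in TH c, and 29640 to 33500 in LPS x against 31070 to 34850 in LPS c. The part of these shifts in the results for other genes was not tested.

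Over the T cell list, 10 of 16 tested members fell in TH x and 1 (Cd28, by 0.57) in LPS x, with medians of -0.42 and -0.12. Of all genes tested, 19.4% fell in TH x and 1.02% in LPS x. The exception in the list was Ctla4, a receptor of activated and regulatory T cells. It rose by 1.32 in TH and read 0.03 in LPS, with a difference of 1.29 that passed. The difference was negative and passed for 4 members, among them Cd5 and Bcl11b, a transcription factor of T cell identity (-0.89 and 0.07). The T cell score of the TH x arrays lay between -0.58 and -0.22, and that of the LPS x arrays between -0.18 and -0.04.

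Genes of natural killer and cytotoxic cells moved in both directions. Gzmb, the granzyme of killer cells, read 1160, 2130, 2320, 2880 and 3010 in TH x against 175 to 196 in TH c, and 730 to 1070 against 253 to 383 in LPS. It rose by 3.34 and 1.39, and its difference of 1.95 passed. The chemokine Ccl5 rose by 1.09 in TH and read 0.11 in LPS. The receptor gene Klrd1 fell by 1.01 in TH and 0.47 in LPS. Perforin, Prf1, which opens the target membrane, rose by 0.71 in LPS and read 0.04 in TH, with a difference at an adjusted p of 0.0504 (named after its values were seen). Of 12 tested members, 4 rose and 5 fell in TH x, 2 rose and 2 fell in LPS x, and the difference passed for 3 in each direction. Over all genes tested the shares were 11.6%, 19.4%, 2.89% and 1.02%, with 4.59% positive and 7.52% negative differences. The 3 negative differences of this list were reduced to 1 without LPS c replicate 1, LPS x replicate 2 or TH c replicate 3.

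Neutrophil genes had the larger median change in LPS. Of 17 tested members, 7 rose in TH x and 10 in LPS x, with medians of 0.21 and 0.69. Over all genes tested, 11.6% rose in TH x, 2.89% rose in LPS x and 12.1% differed between the models. The median of the members' differences was -0.21, and it ran from -0.35 to 0.04 when 1 array was left out. With all arrays, the difference passed for Mmp9 alone, the gelatinase of neutrophil granules. Without LPS c replicate 2 the LPS median was 0.84 and the difference passed for 2 members. Mmp9 read 81.5, 110, 119, 126 and 142 in TH x and 122 to 293 in TH c, and 489 to 809 in LPS x and 196 to 675 in LPS c, and the groups overlapped in both models. Its changes were -0.40 (adjusted p = 0.18) and 0.81 (adjusted p = 0.020), with a difference of -1.21 (adjusted p = 0.0074). A further probe set of Mmp9 read 0.28 in TH and 0.59 in LPS, neither called, and its difference of -0.31 did not pass (adjusted p = 0.51). The LPS call was lost without LPS c replicates 4, 5 or 6 or LPS x replicate 4, taken 1 at a time (adjusted p up to 0.073). The neutrophil score was between 0.32 and 0.93 in TH x and between 0.54 and 1.04 in LPS x, and within the c groups it ran from -0.21 to 0.54 and from -0.28 to 0.55.

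**Figure D4:**
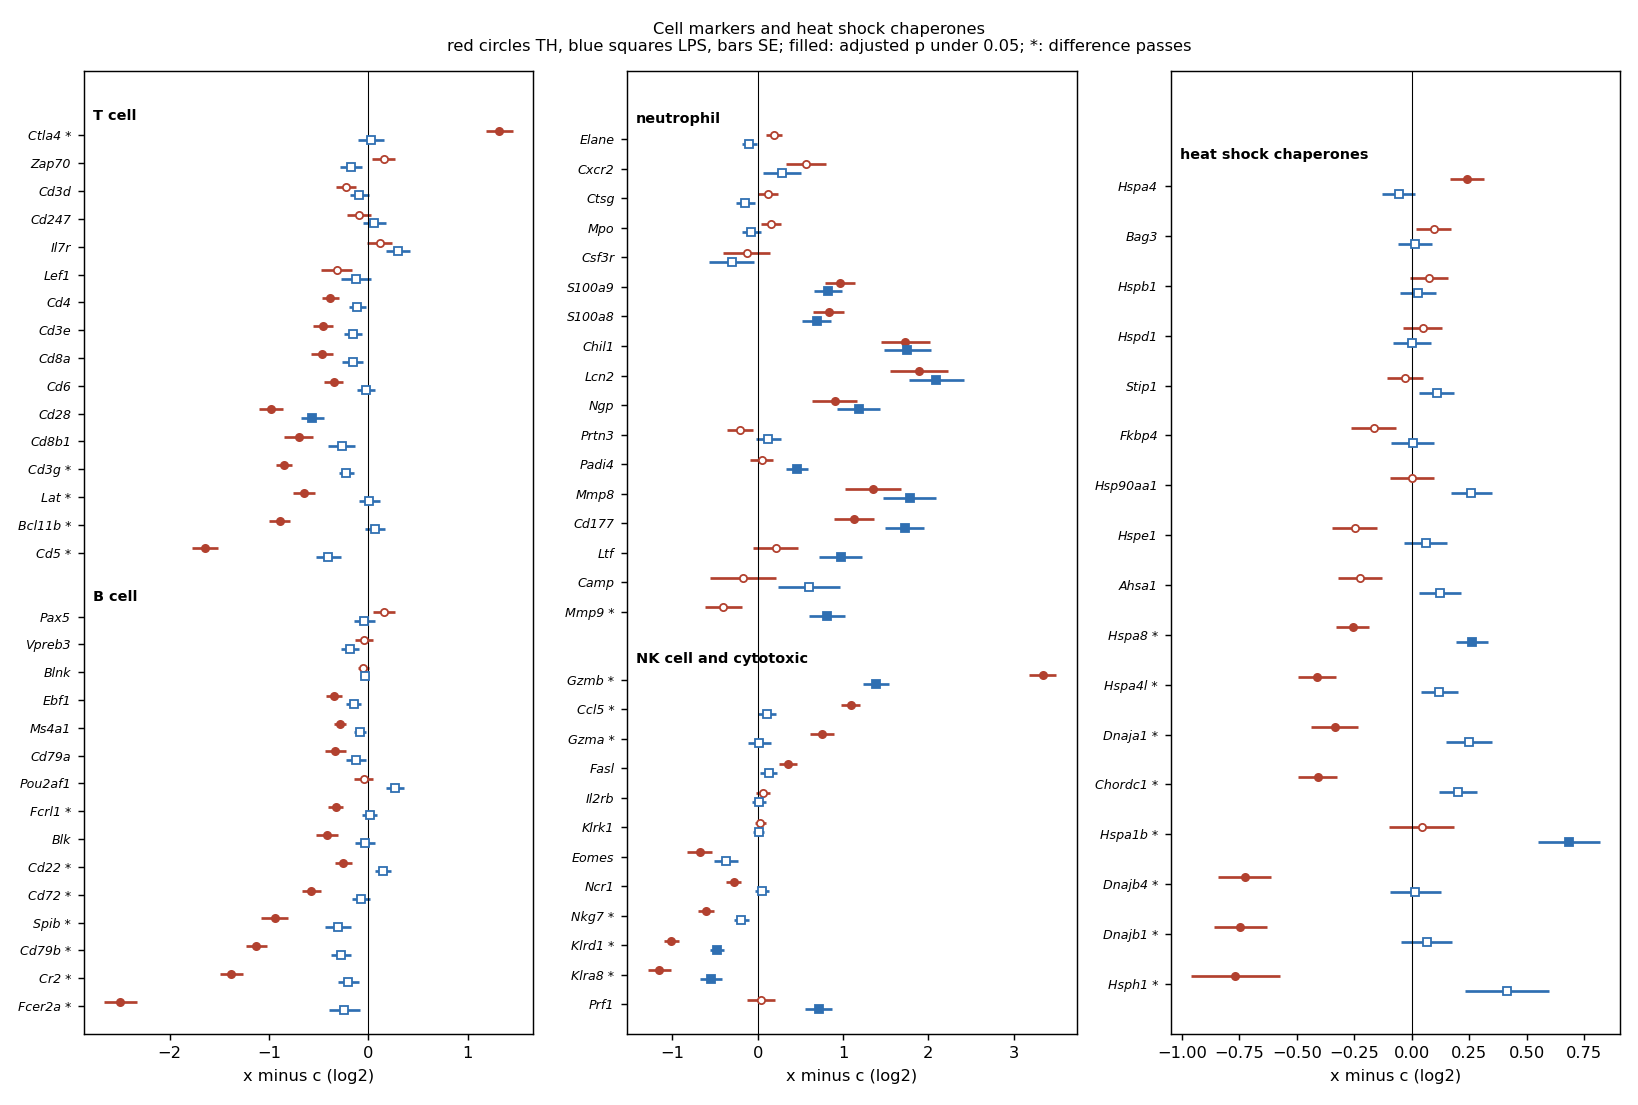
Change in x against c (log2, with SE) of the tested members of 5 lists, in TH (red circles) and LPS (blue squares). Filled symbols passed the test and a star marks a gene whose difference passed. Most B and T cell markers lie below 0 in TH and near 0 in LPS. Of 17 neutrophil genes 10 rose in LPS against 7 in TH, and of 17 chaperones 7 fell in TH while 2 rose in LPS. Of all genes tested, 11.6% rose and 19.4% fell in TH x, and 2.89% rose in LPS x.

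Few genes responded more in LPS. Of the 18 genes whose difference passed with a call in LPS alone, 17 were higher in LPS x and 1, C920021L13Rik, was lower. They were named after their values were seen. Several act on NF-kB signalling: Nfkbib, the inhibitor IkB beta (0.47 in LPS and 0.04 in TH), Tank, a scaffold protein of that pathway (0.41 and 0.04), and Hivep1, which binds kB motifs (0.45 and -0.22). Noct, a rhythmic gene of metabolism, read 0.81 in LPS and 0.20 in TH, the phosphatase gene Dusp2 0.47 and -0.03, and Ncf1, a subunit of the phagocyte oxidase, 0.72 and -0.23. The others were Mmp9, Dram1, Ffar2, Rest, Pilra, Prkd3, Ccdc71l, Msra, Pglyrp1, Gpr35 and Hspa1b. Further probe sets of Ncf1, Ffar2 and Prkd3 had weaker differences, as small as -0.14, -0.23 and -0.02, against -0.95, -0.64 and -0.71 at the ones used. Pglyrp1, which binds bacterial cell walls, passed the difference at an adjusted p of 0.040 and lost it in 14 of the 23 fits that leave out 1 array.

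Of the 122 genes called alike in direction whose difference passed, 120 changed more in TH and 2 changed more in LPS. The 2 were Dgat2, which makes triglycerides (0.76 in TH and 1.29 in LPS), and Tnip1, a restrainer of NF-kB (0.40 and 0.89). A further probe set of Dgat2 had a difference of the other sign (0.08 against -0.53), so its result rests on 1 probe set. Of 68 genes that LPS changed at least 2-fold, 66 were called in the same direction in TH, and the other 2 were the transglutaminase F13a1 (-1.06 in LPS and -0.53 in TH) and the protease Asprv1 (1.11 and 0.32). Of 290 genes that TH changed at least 2-fold, 143 were called in the same direction in LPS.

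Only 4 genes (0.0390%) were called in opposite directions. Fgl2, a secreted regulator of macrophages and T cells, read 277, 512, 513, 571 and 587 in TH x against 213 to 416 in TH c, with 1 x array inside the c range. In LPS it read 305 to 399 in x and 469 to 775 in c, with no overlap. Its changes were 0.63 (SE 0.16, adjusted p = 0.0040) and -0.84 (SE 0.16, adjusted p = 0.00081), and both calls were kept in all 23 fits that leave out 1 array. The difference was 1.46 (SE 0.23, adjusted p = 5.3e-05).

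Ddit4, a stress-induced inhibitor of mTOR complex 1 that glucocorticoids also induce, read 720, 720, 771, 809 and 1220 in TH x against 876 to 1610 in TH c, and 680 to 1180 against 396 to 748 in LPS, so that the groups overlapped in both models. Its changes were -0.51 and 0.62, and 1 of the calls was lost in 6 of the 23 fits that leave out 1 array (without LPS c replicates 1 or 4, LPS x replicates 1 or 3, TH c replicate 5 or TH x replicate 5). Cd200, a surface protein that restrains myeloid cells, changed by -0.55 and 0.37 and lost its LPS call in 8 of 23 fits (adjusted p up to 0.104). Hspa8, the constitutive HSC70 chaperone, changed by -0.26 and 0.26 and lost its LPS call in 6 of 23 fits (adjusted p up to 0.0814). Of 4 probe sets of Hspa8 only that one was called in TH, the other 3 reading -0.16, -0.12 and -0.05 there, so the opposite call rests on 1 probe set. The number of opposite genes ran from 1 without LPS c replicate 4 to 7 without LPS c replicate 6, and was 2 without LPS c replicates 1 or 5 or LPS x replicates 1, 2 or 3.

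Hspa8 was one of several chaperones whose responses parted. Of 17 tested heat shock chaperones, 7 fell and 1 rose in TH x, while none fell and 2 rose in LPS x, with medians of -0.23 and 0.11. Over all genes tested, 19.4% fell and 11.6% rose in TH x, and 1.02% fell and 2.89% rose in LPS x. A negative difference passed for 7.52% of all genes tested. The difference passed for 8 members, all negative, and the median difference of -0.35 lay between -0.40 and -0.30 over every alternative run. Dnajb1, a cochaperone of HSP70, read 390, 541, 555, 560 and 633 in TH x against 784 to 1100 in TH c, and 644 to 979 against 612 to 875 in LPS. It fell by 0.75 in TH and read 0.06 in LPS, and a further probe set read -0.26 in TH without a call. Chordc1, a partner of HSP90, fell by 0.41 and read 0.20. The inducible Hspa1b rose by 0.68 in LPS and read 0.04 in TH. In the endoplasmic reticulum stress list, 7 of 24 tested members fell and 4 rose in TH x, and 1 rose in LPS x, beside 19.4%, 11.6% and 2.89% of all genes tested. The stress sensor Atf6 rose by 0.63 in TH and read -0.00 in LPS, and Herpud1, which serves the degradation of misfolded proteins, fell by 0.62 and read 0.06, with a further probe set whose difference of -0.35 did not pass.

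Of 19 tested glucocorticoid-induced genes, 8 rose and 3 fell in TH x and 7 rose and 1 fell in LPS x. The shares of all genes tested were 11.6%, 19.4%, 2.89% and 1.02%. The metallothioneins, which bind zinc, had the smallest p of the list for the difference. Mt1 read 1320, 1570, 1710, 1920 and 2550 in TH x against 153 to 197 in TH c, and 476 to 1120 against 237 to 331 in LPS. Mt1 rose by 3.14 and 1.37 and Mt2 by 2.66 and 0.71, and both differences passed. The cell cycle inhibitor Cdkn1a rose by 1.89 and 0.73, and a further probe set by 0.39 in TH with a difference of 0.28 that did not pass. The median of this list was lower in TH (0.13) than in LPS (0.29) while the median of its members' differences was 0.11 (0.06 without TH c replicate 1), so the sign depends on the summary used. The same held for 9 tested acute phase genes (medians 0.44 and 0.82, median difference 0.15, and 0.09 without LPS c replicate 6 and 0.45 with the filter at the 50th percentile), among which Saa3, an acute phase protein of macrophages, rose by 2.88 in TH and 1.66 in LPS with a difference of 1.22 that passed.

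Immediate early genes moved in both directions. Of 26 tested, 6 rose and 7 fell in TH x, and 5 rose and 2 fell in LPS x. Over all genes tested, 11.6% rose and 19.4% fell in TH x, and 2.89% rose and 1.02% fell in LPS x. Jun rose by 1.56 in TH and read 0.21 in LPS, Atf3 rose by 1.78 and read 0.11, and Ier5 fell by 0.45 and read 0.17, and all 3 differences passed. Jun turned on the probe set, since a further one rose by 1.81 in TH and 1.57 in LPS (adjusted p = 0.00013) with a difference of 0.24 that did not pass. In the glycolysis and hypoxia list, 7 of 23 tested members rose and 4 fell in TH x, and 2 rose in LPS x. The shares of all genes tested were 11.6%, 19.4% and 2.89%. Hk2, a hexokinase, rose by 1.20 in TH and read 0.12 in LPS, and Hif1a, the oxygen-sensitive transcription factor, rose by 0.77 and read 0.25 (adjusted p = 0.18, and 0.038 without LPS x replicate 6). Further probe sets of Hif1a had differences of 0.19 and 0.40 that did not pass. Car9, a carbonic anhydrase induced by hypoxia, rose by 0.59 and read -0.16. Histidine decarboxylase, Hdc, which makes histamine, rose by 3.69 in TH and 1.67 in LPS with a difference of 2.02 that passed, against 0.28 for a further probe set that did not, while none of the other 4 tested basophil and mast cell markers differed between the models.

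Myeloid and dendritic cell markers were mixed. Marco, a scavenger receptor of marginal zone macrophages, rose by 0.98 in TH and read -0.06 in LPS, with a difference that passed. Itgax (CD11c) read 73, 90.4, 105, 111 and 140 in TH x against 208 to 353 in TH c, and the LPS groups overlapped. It fell by 1.14 in TH and read -0.17 in LPS. Tlr3, a receptor for double-stranded RNA, rose by 1.26 and read -0.18. Of 12 tested red pulp macrophage genes, none differed between the models at the probe set used, beside 12.1% of all genes tested. With so few genes, that count does not show that they responded alike. Cd163, the hemoglobin scavenger receptor, fell by 1.72 in TH with 1 x array at the floor and read -0.73 in LPS, and its difference of -0.99 (adjusted p = 0.10) passed without LPS x replicate 4 or TH x replicate 4 (adjusted p of 0.045 and 0.046). Spic, the transcription factor of these macrophages, rose in both, by 1.22 and 0.66, and a further probe set rose by 1.97 and 0.92 with a difference of 1.05 that passed (adjusted p = 0.043). In the complement and Fc receptor list Fcgr4, an activating IgG receptor, rose by 1.53 in TH and read 0.36 in LPS. Of the 14 tested members of that list, 3 rose and 3 fell in TH x and 1 rose in LPS x. The difference passed with a positive sign for 1 and a negative sign for 2. The shares of all genes tested were 11.6%, 19.4%, 2.89%, 4.59% and 7.52%.

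**Figure D5:**
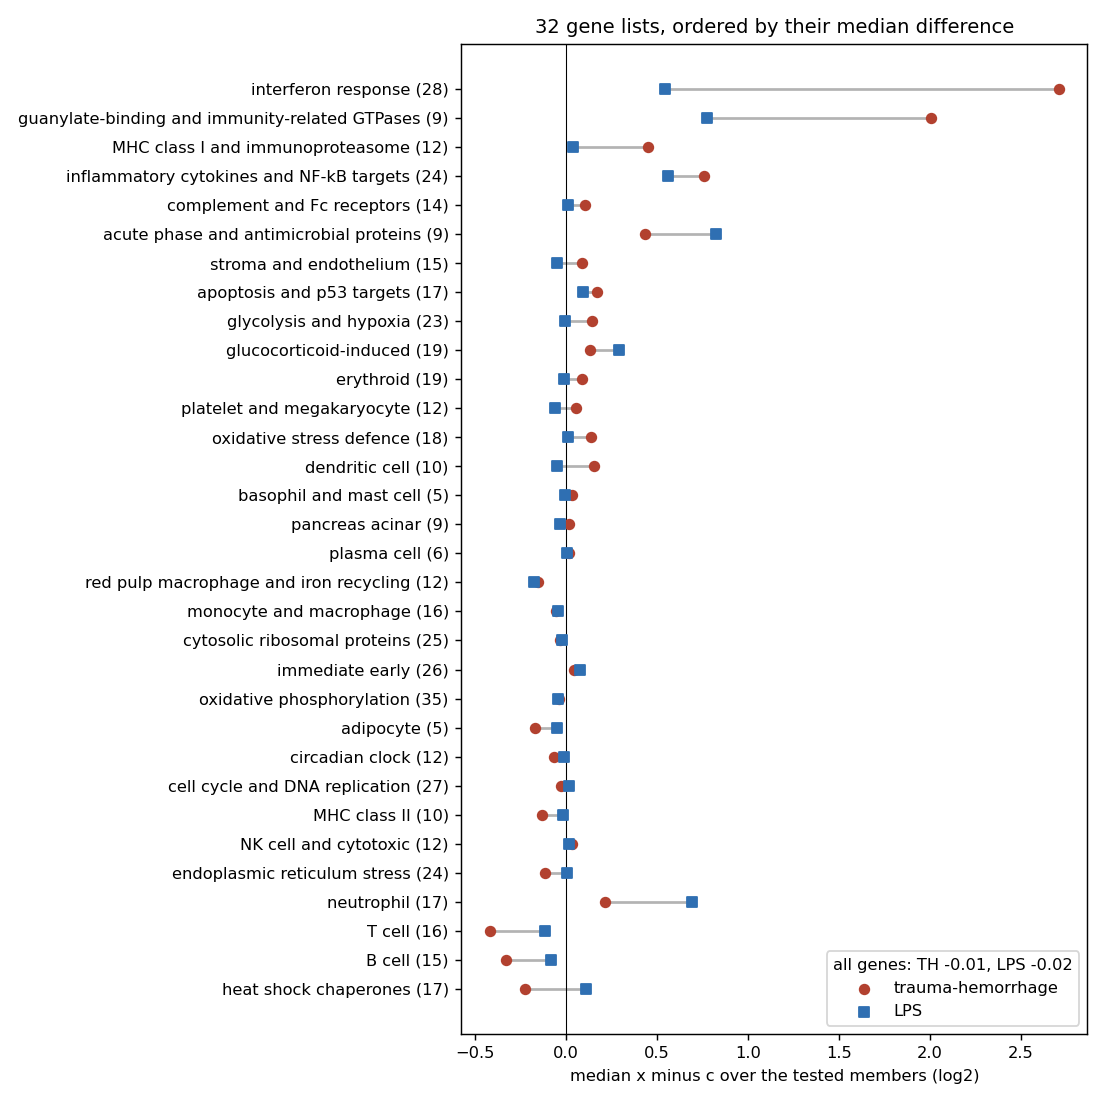
Median change in x against c (log2) over the tested members of 32 lists (number tested in brackets), in TH (red circles) and LPS (blue squares), ordered by the median of the members' differences. The interferon-response list is at the top (2.71 and 0.55) and the heat shock chaperones at the bottom (-0.23 and 0.11), and housekeeping lists lie near 0 in both models.

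Counts for housekeeping and growth genes are given beside the shares of all genes tested, which were 11.6% higher and 19.4% lower in TH x, 3.91% called in LPS and 12.1% differing. Of 25 tested cytosolic ribosomal proteins 3 fell in TH x, and none differed between the models. Of 35 tested genes of oxidative phosphorylation 3 rose and 6 fell in TH x, none was called in LPS, and 1 (Sdha) differed, though not at its further probe set (0.07). Of 27 tested cell cycle genes 1 rose and 4 fell in TH x, 1 rose and 1 fell in LPS x, and none differed. Of 19 tested erythroid genes 3 rose in TH x and none was called in LPS, and the anion exchanger Slc4a1 was the only one to differ (0.64 and -0.08), with 2 further probe sets at differences of 0.17 and -0.22 that did not pass. Among 15 tested stromal and endothelial genes Kdr differed (0.52 and -0.00), and among 12 platelet genes Thbs1 did (1.62 and 0.59), whose LPS call was lost without LPS c replicate 4 or LPS x replicate 2.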

How the data were processed

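The deposited values are 1-colour array intensities on a linear scale, 1 table per array; the sources used here do not state how the authors made these intensities from the scans. Of 22690 probe sets, 64 controls were left out. GEO's platform annotation gave 1 symbol to 20380 of the other 22626, several to 691 and none to 1555, and 20351 matched RefSeq by gene identifier. Values were quantile normalized over the 34 spleen arrays and taken as log2(intensity + 16). The probe set with the highest mean stood for a gene, and genes under the 30th percentile of mean level were left out. The 4 groups were fitted together with limma 3.58.1 (R 4.3.3, eBayes with trend), two-sided, with Benjamini-Hochberg adjustment. The script was tested on simulated data.

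The members and the 32 gene lists (587 of 682 listed genes on the array, 506 tested) were chosen with earlier results of these data known, so lists are described by counts and medians, with no test. Named genes were the 12 largest positive and 12 largest negative differences that passed, the genes with the largest change shared by both models in each direction, the opposite calls and, in each list, the 3 members with the smallest p for the difference. Genes singled out otherwise are said to be so. Alternatives changed the normalization, pseudocount, filter, probe set rule, block and weights or left out 1 array, and 2 (each set's floor subtracted, and only genes with no array at the floor) were chosen after seeing the data. The number of arrays limits the precision.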

Additional observations from a re-analysis of the deposited data

Results flagged for a closer look

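What stood out were single arrays far from the rest of their group and responses that differed between the models. Of 148 groups of arrays examined, 16 held an array whose gap to the nearest other one was large against the range of the group, and chance gives about 1 in 20. LPS c replicate 6 stood apart in its residual SD (0.2845), its mean correlation with its group (0.9667) and its 5′ signal of 18S ribosomal RNA (8.423, log2).

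LPS c replicate 2 was high in the inflammatory list (0.5527, against -0.1881 to -0.05321 on the other c arrays) and in the list of apoptosis and p53 targets (0.154). These scores are mean log2 levels relative to the c mean of the model. TH x replicate 3 was low in the interferon-response list (1.664, against 2.529 to 2.686). TH c replicate 5 was high in the acute phase (0.4667), neutrophil (0.5402) and oxidative stress lists (0.07486). LPS x replicate 6 was high in the plasma cell (0.1878), MHC class I (0.2296) and cell cycle lists (0.2901). The remaining ones were TH x replicate 1 in the stroma list (0.223), TH c replicate 6 in the immediate early list (0.3488), TH c replicate 3 in the glycolysis list (0.06774) and LPS x replicate 4 in the complement list (-0.219).

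By the test of the difference in limma, 1241 genes responded differently in the models. The genes called in opposite directions had differences of 1.463 for Fgl2, -1.128 for Ddit4, -0.9132 for Cd200 and -0.5188 for Hspa8.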

How the results depend on the processing

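No paired analysis was possible because the labels give the groups no shared replicate numbers. With the LPS rounds of title numbers as a block, 1227 genes differed between the models, 338 were called in both in the same direction and 4 in opposite directions. Over 17 other settings and 23 fits without 1 array, no difference past the threshold changed sign, while some that did not pass, such as that of Cxcl2, did. Counts moved by over 1.5 times only as follows, with the cause not tested. Median centring alone gave 64 genes lower in LPS x. Testing every probe set gave 8 opposite calls. Array weights gave 615 genes changed in LPS, 269 of them lower, with 12 opposite and 195 alike. Asking for at least 2-fold, which by construction calls fewer genes, gave 290 genes in TH (206 higher, 84 lower), 68 in LPS (63 higher, 5 lower), 154 differing (114 positive, 40 negative), 61 shared, 0 opposite and 2 alike, and raised the share of positive differences from 37.9% to 74.0%. Without 1 array at a time, the genes lower in LPS x numbered 80 to 161 and the opposite calls 1 to 7. Of calls on single named genes, 2094 kept their side of the threshold under the other settings, 24 gained and 37 lost it, and without 1 array 2904 kept, 31 gained and 32 lost it. Of the medians of list differences, 12 moved by more than the spread between arrays under other settings and 7 without 1 array. Filters that tested fewer genes left 19 to 22 of the 24 genes with the largest differences in the fit. Low signals limit what can be seen: values at the floor, which differs between the sets, have no order.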
